A study of Mus musculus with 33 samples.

Results

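The pyruvate dehydrogenase complex and its regulators were followed in mouse liver through 10 genes: the kinases Pdk1, Pdk2, Pdk3 and Pdk4, the phosphatase subunit Pdp2, and the structural genes Pdha1, Pdhb, Dlat, Dld and Pdhx. The members were all probe sets of the array table whose gene symbol was one of these names. There were 18 such probe sets among 45101, and 16 of them, from 9 of the 10 genes, were bright enough to be tested among 9005 genes of the liver. Pdk3, a kinase isoform, has 1 probe set, which stayed at or below a log2 value of 3.17 on all 33 arrays and was not tested.

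Total liver RNA of 33 male C57BL/6J mice was hybridised to 1 Affymetrix whole-genome mouse array per animal. The mice were 17 weeks old and had eaten a research diet for 2 weeks; all groups were fasted during the morning before death. In the control group (n = 10) the diet held an oleic-rich sunflower oil, which gave 7% of the energy. The fenofibrate group (n = 12) received the same oil and fenofibrate at 0.03% by weight; fenofibrate is a PPAR-alpha agonist given to lower blood lipids. The fish oil group (n = 11) received, at 7% of energy, a fish oil with 23.1% EPA and 21.1% DHA, which are long-chain omega-3 fatty acids. Mice were housed 2 per cage and the labels do not name cage mates, so the p-values measure the spread between these animals as if they were independent.

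The complex sits in the mitochondrial matrix and turns pyruvate into acetyl-CoA, the step that commits carbon from glucose to oxidation or to fat synthesis. The E1 enzyme (Pdha1 and Pdhb) decarboxylates pyruvate, the E2 enzyme (Dlat) passes the acetyl group over a lipoyl arm to coenzyme A, the E3 enzyme (Dld) reoxidises that arm, and Pdhx binds E3 to the E2 core. Kinases switch the complex off by phosphorylating the E1 alpha subunit and phosphatases switch it on again; in liver, Pdk2 and Pdk4 are the best known kinases, and Pdk4 is a textbook target of fasting and of PPAR-alpha.

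Promoter sequences of the genes that differed most between the diets are shown here, Pdk4 for its rise with fenofibrate and Dlat for the gap between the diets. Each is the 250 bases before the annotated start, 5′ to 3′, from RefSeq on GRCm38.p6; capitals mark a CCAAT box in Pdk4 (read on the other strand) and a GC box in Dlat.
Pdk4, chr6:5496279-5496528, minus strand: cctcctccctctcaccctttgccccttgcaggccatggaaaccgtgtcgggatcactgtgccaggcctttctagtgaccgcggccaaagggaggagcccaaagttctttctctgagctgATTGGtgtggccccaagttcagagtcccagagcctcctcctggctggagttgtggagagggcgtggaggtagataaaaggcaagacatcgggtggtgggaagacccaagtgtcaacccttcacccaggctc
Dlat, chr9:50659781-50660030, minus strand: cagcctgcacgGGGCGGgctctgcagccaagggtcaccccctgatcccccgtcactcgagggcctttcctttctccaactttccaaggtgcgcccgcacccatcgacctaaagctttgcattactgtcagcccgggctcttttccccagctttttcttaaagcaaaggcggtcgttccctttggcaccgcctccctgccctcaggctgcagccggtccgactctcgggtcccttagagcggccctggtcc
Promoter windows of 300 bases (250 before and 50 after the start) were at hand for all 10 genes, 12 windows in all, and were searched on both strands for 4 motifs, none of which contains another; the motifs were chosen after the sequences had been seen. The CCAAT box (CCAAT) was in 7 of the 12 windows, 58.3%, against 37.4% of 32851 mouse windows of that length. The GC box (GGGCGG) was in 6, or 50%, against 35.7% of all windows. The nuclear receptor core motif (AGGTCA), in 16.3% of all windows, and the TATA box (TATAAA), in 13.6%, had no exact match in the 12, which says only that these letters are not in these windows. The Pdk4 window held 12 CpG dinucleotides and the Dlat window 18, where the median of all windows was 7. Of all windows, 60.4% held fewer than the Pdk4 window and 70.3% fewer than the Dlat window.

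The livers carried the defining genes of hepatocytes and not those of muscle, a tissue rich in the complex. All 10 hepatocyte genes on the array that were named for the purpose, among them albumin (Alb) and transthyretin (Ttr), were bright, with mean log2 levels of 13.99 to 14.09 over the list in control arrays, 13.78 to 13.94 with fenofibrate and 13.96 to 14.07 with fish oil. All 11 muscle genes stayed below 4, at or under 3.60 on every array. Array medians lay between 2.90 and 2.97, and arrays of a group correlated at 0.968 to 0.995. Control replicates 1, 2 and 9 had stood apart in earlier work on these arrays, so values without them are given where they matter.

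With fenofibrate, 6 of the 9 measured members rose against control and none fell: Pdk4, Pdk1, Pdha1, Dlat, Dld and Pdhx. Pdk4 rose most, 7.76-fold, and the 5 others rose 1.16-fold to 1.53-fold. Pdk2, Pdhb and Pdp2 did not pass the test. The 6 genes are 66.7% of the members, beside 40.8% of all genes called in either direction (limma, adjusted p under 0.05); 1978 of the 9005 genes were called higher. The arrays of fenofibrate and control were fully apart for 5.41% of all genes and for no member. The median log2 difference was 0.31 over the members and -0.0016 over all genes. By probe set, 10 of 16 were higher and 1 was lower, 68.8%, beside 36.6% of all probe sets. In whole liver, a change in the number of cells of a type and a change in RNA per cell cannot be told apart. Fish oil gave a different picture from the same controls: 1 member rose (Pdhx) and 1 fell (Dlat), which is 22.2% of the members beside 14.5% of all genes, and the median difference was 0.01 over both the members and all genes. Between the diets, 5 members were higher with fenofibrate (Pdk4, Pdk1, Pdha1, Dlat and Dld), 55.6% beside 38.9% of all genes in either direction, of which 1786 were higher with fenofibrate, and no member was lower. By probe set, 1 of 16 was called with fish oil, 6.25% beside 11.6% of all probe sets, and 10 of 16 between the diets, 62.5% beside 34.5%. Both diets are compared with the same 10 control arrays, so their differences from control are not independent of each other.

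**Figure D1:**
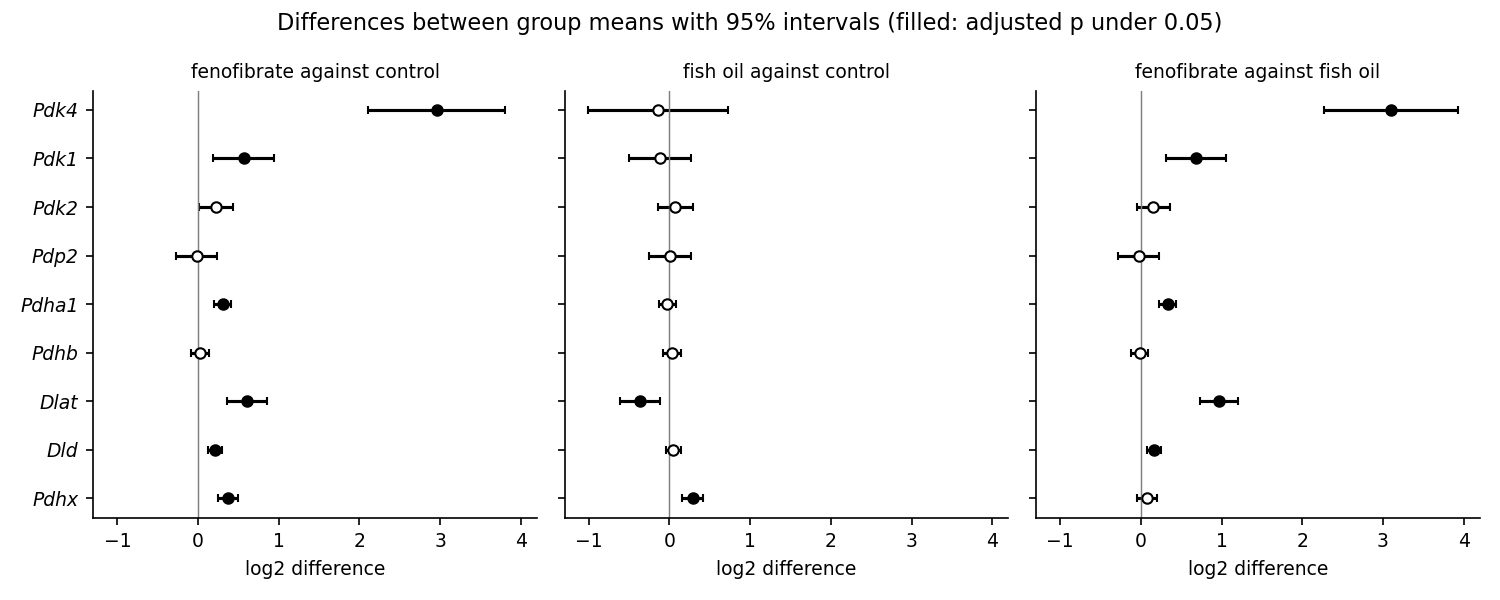
Difference in mean log2 value for the 9 measured members in each comparison (x axis, log2 units), with 95% intervals from the limma fit. Filled points passed an adjusted p of 0.05. Pdk4 stands at 2.96 with fenofibrate and at -0.14 with fish oil, and Dlat is higher than control with fenofibrate and lower with fish oil.

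Pdk4 encodes the kinase isoform that is induced in fasting and keeps pyruvate from oxidation. Its log2 level ran from 7.25 to 9.62 with fenofibrate, with a median of 8.42. The control arrays ran from 4.56 to 9.27, with a median of 4.78. The fish oil arrays ran from 4.12 to 6.81, with a median of 5.31. Control replicate 1, at 9.27, lay above 11 of the 12 fenofibrate arrays and made the groups overlap; the next highest control was replicate 9 at 6.84, below all 12 fenofibrate arrays. The fenofibrate mean was 8.41 ± 0.72 (SD, n = 12) and the control mean 5.46 ± 1.50 (n = 10), a rise of 2.96 ± 0.42 (SE; 95% interval 2.11 to 3.80; limma adjusted p = 7.02e-07; two-sided permutation p = 8e-05). Without control replicate 1 the controls averaged 5.03 ± 0.72 (n = 9), and without replicates 1, 2 and 9 they averaged 4.83 ± 0.27 (n = 7). The rise was called in every alternative run, at log2 differences of 2.85 to 3.59.

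With fish oil, the Pdk4 mean was 5.32 ± 0.72 (SD, n = 11), and the difference from control was -0.14 ± 0.43 (95% interval -1.01 to 0.72; adjusted p = 0.874; permutation p = 0.81). The sign of that difference rested on single controls: it was 0.28 without control replicate 1 (adjusted p = 0.599), 0.01 without control replicate 9 (adjusted p = 0.99) and 0.49 without replicates 1, 2 and 9 (adjusted p = 0.287). The interval does not show that fish oil left Pdk4 as it was. Fenofibrate and fish oil arrays did not overlap for Pdk4, as for 6.34% of all genes; the difference was 3.10 ± 0.41 or 8.56-fold (adjusted p = 2e-07; permutation p = 2e-05, the smallest that 100000 resamples can give). Most control and fish oil values of Pdk4 lay within 2 log2 units of the brightness floor of 4, where the size of a fold depends on the background model behind the deposited values.

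Control replicate 1 differed from other controls in more than Pdk4. Of 12 measured circadian clock genes, 11 lay below the lowest of the 7 controls other than replicates 1, 2 and 9, and Clock, which encodes the activating factor of the loop, lay above the highest of them. The D-box factor Dbp was at 9.48 in replicate 1 and at 12.13 to 12.45 in those 7, and the repressor Per3 was at 4.72 against 7.85 to 8.39. Leaving out arrays that stood apart can only narrow the range of those 7. The diet group means also fell below it for Dbp (11.74 with fenofibrate, 11.72 with fish oil) and Per3 (7.16 and 7.10). For Nr1d2 they lay inside it (11.38 and 11.45). Over the clock list, mean levels ran from 6.92 to 8.70 in all controls, 7.54 to 8.33 with fenofibrate and 7.44 to 8.62 with fish oil. The median deviation of the clock list from those 7 controls was -1.32 in replicate 1, -0.62 in replicate 2 and -0.49 in replicate 9. The median deviation of 12 PPAR-alpha target genes was 0.35 in replicate 1, -0.20 in replicate 2 and 0.67 in replicate 9, and the 7 others lay between -0.14 and 0.08. Of 13 fasting and glucocorticoid genes, the median deviation in replicate 1 was 0.15, inside the -0.23 to 0.18 of the 7. Of the adipocyte markers, 3 were kept (Fabp4, Cidec and Car3), with median deviations of 1.02 in replicate 1 and 1.30 in replicate 2; the fat hormone genes Adipoq, Lep and Retn were below 4 on every array. The part of these shifts in the Pdk4 value of replicate 1 was not tested.

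**Figure D2:**
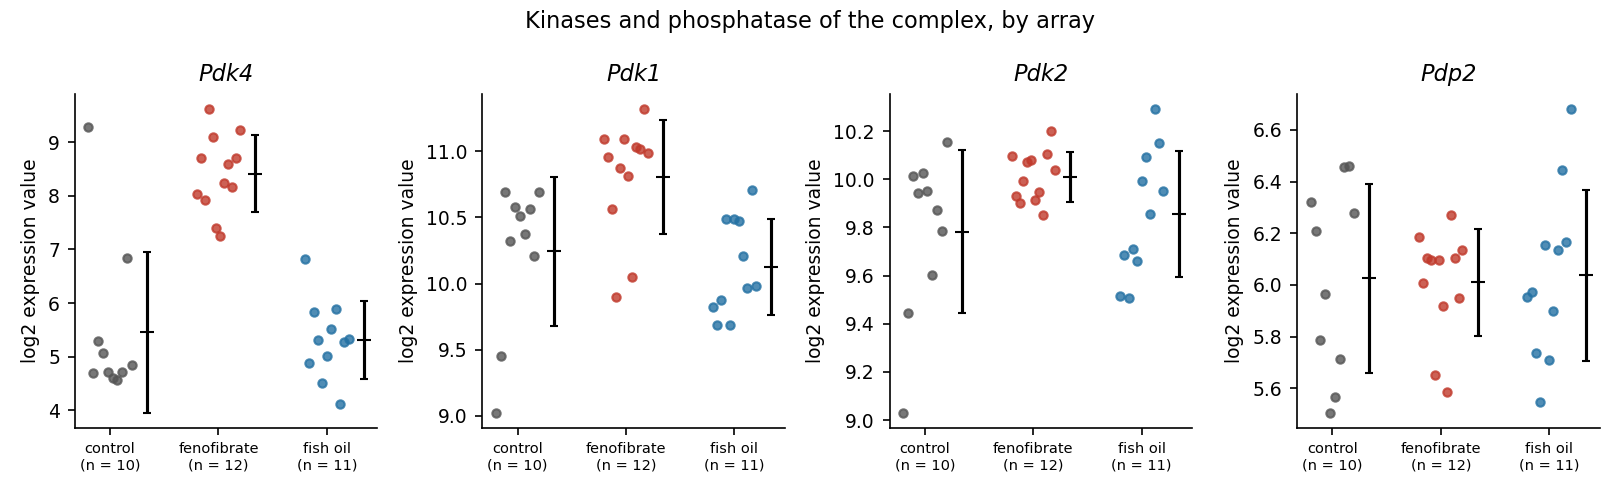
Log2 level on every array for Pdk4, Pdk1, Pdk2 and Pdp2 (y axis, a separate scale per gene), with 1 point per mouse, drawn left to right in replicate order, and the mean ± SD of each group as a bar. Control replicate 1 is the highest control for Pdk4 at 9.27 and the lowest for Pdk1 at 9.03 and for Pdk2 at 9.03.

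Pdk1 encodes a kinase isoform best known from heart and from cells short of oxygen. Its brightest probe set ran from 9.90 to 11.32 with fenofibrate (median 10.97), from 9.03 to 10.69 in controls (median 10.44) and from 9.68 to 10.71 with fish oil (median 9.98). The groups overlapped, with control replicates 1 and 2 the lowest at 9.03 and 9.46. The mean rose by 0.56 ± 0.19 against control (1.48-fold, adjusted p = 0.0152). That call was lost without control replicates 1, 2 and 9 (difference 0.27, adjusted p = 0.188), with array weights (0.36, adjusted p = 0.0638) and with the mean of the 4 kept probe sets (0.32, adjusted p = 0.132). The difference between fenofibrate and fish oil was 0.68 ± 0.18 (adjusted p = 0.00316), did not use the controls' means, and was called in all alternatives run. Fish oil differed from control by -0.12 ± 0.19 (95% interval -0.51 to 0.27, adjusted p = 0.747). Without control replicates 1, 2 and 9 that fish oil difference was -0.41. It was not called in any of the 45 alternatives, where the lowest adjusted p was 0.0946.

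The other Pdk1 probe sets are given with p-values adjusted over all 17162 kept probe sets. The second, with a control mean of 8.81, was higher with fenofibrate by 0.58 (adjusted p = 0.0136). The one with a control mean of 7.88 differed by 0.21 from control (adjusted p = 0.229), and the dimmest, with a control mean of 4.15, by -0.08. Against fish oil, the 2 brighter of these 3 were higher with fenofibrate, by 0.78 and 0.59, and the dimmest differed by 0.52 without passing the test (adjusted p = 0.0935). In the same order, fish oil differed from control by -0.20, -0.38 and -0.59 on these 3. None of them was called (adjusted p = 0.579, 0.0701 and 0.13).

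Pdk2, the kinase isoform found in most tissues and abundant in liver, was at 9.85 to 10.20 with fenofibrate (median 10.02), 9.03 to 10.16 in controls (median 9.91) and 9.51 to 10.29 with fish oil (median 9.86). The groups overlapped, and the fenofibrate arrays were the least spread, at 10.01 ± 0.10 (SD) beside 9.78 ± 0.34 and 9.86 ± 0.26. The difference from control was 0.23 ± 0.10 with fenofibrate (adjusted p = 0.0768) and 0.07 ± 0.11 with fish oil (adjusted p = 0.711). The fenofibrate difference passed the test in 1 of 45 alternatives, without control replicate 10 (0.27, adjusted p = 0.0373). It was smallest without control replicates 1, 2 and 9, at 0.07. The highest adjusted p of the 45 was 0.548.

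Pdp2 encodes a catalytic subunit of the phosphatase that reactivates the complex. Its level was 6.03 ± 0.36 in controls, 6.01 ± 0.21 with fenofibrate and 6.04 ± 0.33 with fish oil, and the 3 groups overlapped over nearly their whole ranges. Fenofibrate differed from control by -0.02 ± 0.13 (95% interval -0.27 to 0.24) and fish oil by 0.01 ± 0.13 (-0.25 to 0.27), and the sign of each turned in 10 of 45 alternatives. Pdpr, the regulatory subunit of the same phosphatase, rose by 0.24 with fenofibrate (adjusted p = 0.00333) and differed by 0.18 with fish oil (adjusted p = 0.0671). Pdp1, the other catalytic subunit, has 2 probe sets, which stayed at or below 2.96 on every array, and was not tested.

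Among the structural genes, the E1 alpha gene Pdha1, whose protein the kinases phosphorylate, ran from 10.18 to 10.65 with fenofibrate (median 10.44), 9.83 to 10.35 in controls (median 10.16) and 9.99 to 10.20 with fish oil (median 10.14). It rose by 0.31 ± 0.05 with fenofibrate (1.24-fold, adjusted p = 1.26e-05), a small shift that was called in all 45 alternatives. Fish oil differed by -0.03 ± 0.05 (adjusted p = 0.794). The second Pdha1 probe set gave 0.32 with fenofibrate (adjusted p over probe sets 5.44e-04) and -0.08 with fish oil.

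Pdhb, the E1 beta gene, did not move with its partner on its brighter probe set. That probe set was at 10.78 to 11.15 in controls, 10.85 to 11.24 with fenofibrate and 10.71 to 11.16 with fish oil, with full overlap and a fenofibrate difference of 0.02 ± 0.05 (95% interval -0.09 to 0.13, adjusted p = 0.784). The second Pdhb probe set, with a control mean of 7.30, was lower with fenofibrate by 0.24 ± 0.09 (difference -0.24, adjusted p over probe sets 0.0456). Only the second Pdhb probe set was called, and the difference between the probe sets was not tested. With their mean the fenofibrate difference was -0.11 and not called. E1 is built from equal numbers of both subunits; the difference between the responses of Pdha1 and Pdhb was not tested.

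Dlat, the E2 core, was the member that differed from control in opposite directions under the diets. Its brightest probe set ran from 9.17 to 9.96 with fenofibrate (median 9.55), 8.16 to 9.48 in controls (median 8.98) and 7.96 to 8.88 with fish oil (median 8.70). All 12 fenofibrate arrays lay above the control median and all 11 fish oil arrays lay below it, and the fenofibrate and fish oil arrays did not overlap. Dlat and Pdk4 were the 2 of 9 members whose arrays lay apart between the diets, beside 6.34% of all genes. Dlat rose by 0.61 ± 0.12 with fenofibrate (1.53-fold, adjusted p = 1.15e-04). It fell by 0.36 ± 0.12 with fish oil (difference -0.36, adjusted p = 0.0428). The rise was called in all 45 alternatives, at 0.43 to 0.70. It was smallest, at 0.43, without control replicates 1, 2 and 9. The fall was lost in 18 of the 45, with a highest adjusted p of 0.277. Leaving out any 1 of 12 arrays was enough, namely the controls numbered 3, 4, 5, 6, 7, 8 and 10 and the fish oil arrays numbered 1, 2, 4, 5 and 9, with a highest adjusted p of 0.0952. With control replicates 1, 2 and 9 removed it was deeper, at -0.55 (adjusted p = 7.18e-04). Between the diets the gap was 0.97 ± 0.12 or 1.96-fold (adjusted p = 3.92e-08).

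All 3 probe sets of Dlat rose with fenofibrate, by different amounts whose difference was not tested, and none of the 3 was called with fish oil when probe sets were adjusted together. The second, at 8.88 in controls, differed by 0.62 with fenofibrate and by -0.36 with fish oil (adjusted p over probe sets 0.0564). The dimmest, at 6.82 in controls, differed by 0.88 with fenofibrate and by 0.09 with fish oil (adjusted p over probe sets 0.793).

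Pdhx, the E3-binding protein, was the member that rose under both diets. It ran from 8.19 to 8.76 with fenofibrate (median 8.52), 7.94 to 8.351 in controls (median 8.22) and 8.355 to 8.67 with fish oil (median 8.41). The fish oil and control arrays did not overlap, as for 1.05% of all genes, with the lowest fish oil array at 8.355 and the highest control at 8.351. The rise was 0.37 ± 0.06 with fenofibrate (1.29-fold, adjusted p = 1.32e-05) and 0.29 ± 0.06 with fish oil (1.22-fold, adjusted p = 0.00144), and each was called in all 45 alternatives. The diets differed by 0.08 ± 0.06 (95% interval -0.05 to 0.20, adjusted p = 0.329).

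Dld, the E3 enzyme that the complex shares with the other 2-oxo acid dehydrogenases and the glycine cleavage system, ran from 10.32 to 10.64 with fenofibrate (median 10.47), 10.13 to 10.40 in controls (median 10.28) and 10.18 to 10.42 with fish oil (median 10.33). It rose by 0.21 ± 0.04 with fenofibrate (1.16-fold, adjusted p = 1.31e-04), with overlapping groups, and differed by 0.05 ± 0.04 with fish oil (adjusted p = 0.488). A second Dld probe set stayed below 4 on all arrays and was not tested.

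**Figure D3:**
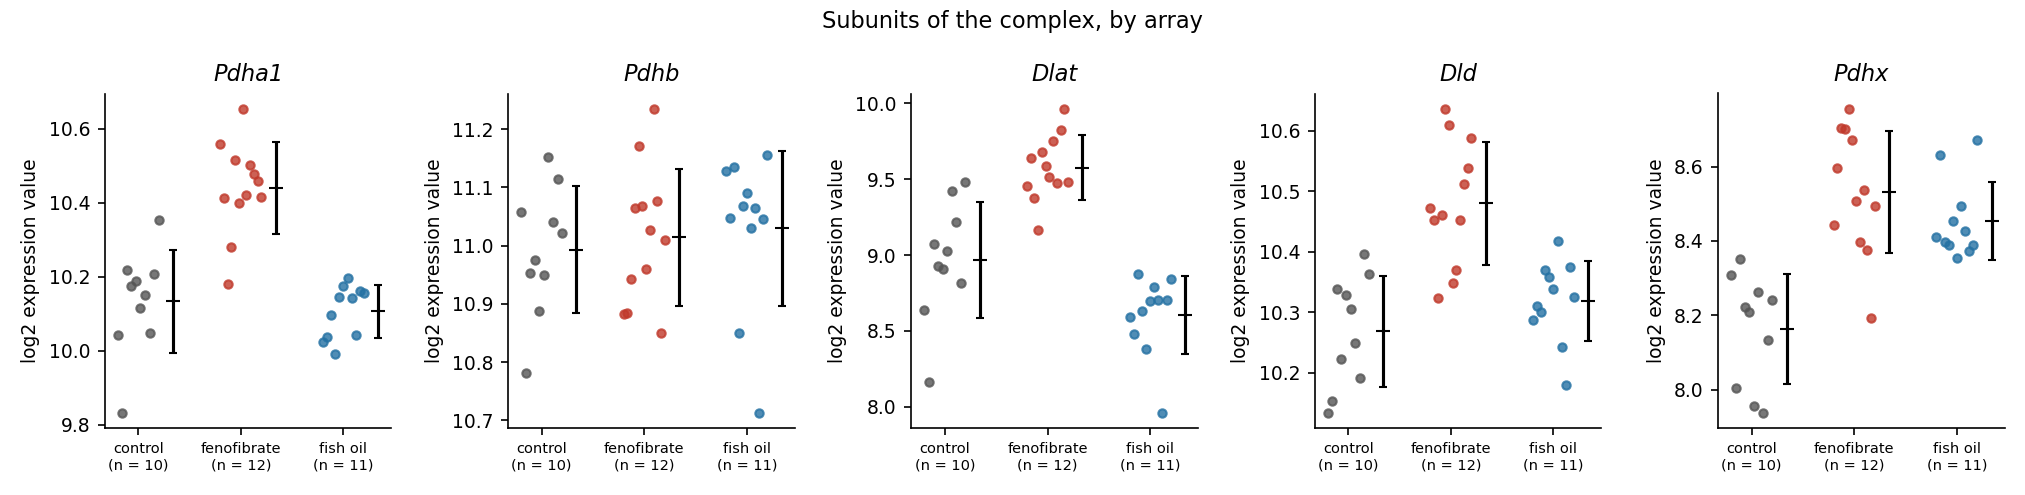
Log2 level on every array for the structural genes Pdha1, Pdhb, Dlat, Dld and Pdhx (y axis, a separate scale per gene), with 1 point per mouse and the mean ± SD of each group as a bar. Fenofibrate and fish oil arrays do not overlap for Dlat, and the fish oil arrays of Pdhx all lie above the controls.

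From mouse to mouse, no relation between Pdk4 and another member passed the test. Pdk4 was compared with each of the 8 other measured members within each group, 24 relations in all, a family chosen after the values had been seen. None passed adjustment over the 24; the smallest adjusted p was 0.365. Among the 10 controls, Pearson's r of Pdk4 with Pdk1 was -0.702 (permutation p = 0.0394) but Spearman's rho was -0.188 (permutation p = 0.602), and r was 0.274 without replicates 1 and 9, so the relation rested on those arrays. Among the 11 fish oil arrays, r of Pdk4 with Dlat was 0.633 (permutation p = 0.0456) and rho 0.655 (permutation p = 0.0331), with r at 0.805 without the 2 arrays farthest from the Pdk4 median.

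Outside the members, the 5 genes whose pattern over the 33 arrays was most like that of Pdk4, after each group's mean had been taken off, were Cdkn1a, Ehhadh, Ppp2r2d, Bace1 and Cbfa2t3, with Pearson's r of 0.839, 0.828, 0.795, 0.792 and 0.783. Cdkn1a encodes a cell cycle inhibitor and Ehhadh a peroxisomal beta-oxidation enzyme. Each r fell without control replicate 1, to 0.547 to 0.656 over 32 arrays. The ranking without that array, made after the values had been seen, was led by Crls1, which makes cardiolipin, at 0.791, and Commd8 at 0.704, with Crat, the carnitine acetyltransferase that takes acetyl groups off coenzyme A next at 0.693. These arrays share their groups, their processing and a mouse that stands apart, and the values are descriptions. With fenofibrate, Ehhadh rose by 2.39 and Crat by 1.53, and Cdkn1a differed by 0.17 (adjusted p = 0.705).

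Genes that supply pyruvate or take up its products were next in the pathway; as for the lists that follow, their counts stand beside 40.8% of all genes called with fenofibrate and 14.5% with fish oil. Of 13 measured genes of 16 listed, fenofibrate raised 6 and lowered 1, with a median difference of 0.13, and fish oil raised none and lowered 5, with a median of -0.16, beside medians of -0.0016 and 0.01 over all genes. Of these genes, 2 were called in opposite directions under the diets, Me1 and Cs. Malic enzyme Me1, which makes pyruvate and NADPH from malate, rose by 1.23 with fenofibrate (adjusted p = 1.27e-11) and fell by 0.56 with fish oil (adjusted p = 2.60e-04). Citrate synthase Cs, which takes up acetyl-CoA, rose by 0.37 with fenofibrate (adjusted p = 2.29e-05) and fell by 0.41 with fish oil (adjusted p = 2.75e-05). The pyruvate kinase of liver, Pklr, fell under both diets, by 1.37 with fenofibrate and by 1.22 with fish oil. ATP citrate lyase Acly, which releases acetyl-CoA in the cytosol for fat synthesis, fell by 1.34 with fish oil (adjusted p = 1.07e-07). The monocarboxylate transporter gene Slc16a7 rose by 0.88 with fenofibrate, and the pyruvate carrier gene Mpc1 was higher with fenofibrate than with fish oil by 0.37.

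The E2 and Pdhx proteins of the complex carry lipoate, and genes for lipoate synthesis and attachment mostly rose with fenofibrate. All 14 listed genes were measured; 10 rose and 1 fell, with a median difference of 0.24. Ndufab1, the mitochondrial acyl carrier protein on which the octanoyl precursor is built, rose by 0.72 (adjusted p = 3.07e-15), the lipoyl synthase Lias by 0.27 (adjusted p = 5.21e-07) and Mcat, which loads the carrier, by 0.41. With fish oil 2 of the 14 rose, Lias by 0.25 (adjusted p = 1.37e-05) and Iba57, an iron-sulfur assembly factor, by 0.45, and none fell. The median was 0.08. Iba57 lay near the floor of 4, with means of 4.40 in controls and 4.84 with fish oil. The size of its rise therefore depends on the background model. Of the 5 listed genes that supply thiamine diphosphate, the E1 cofactor, 2 were measured and neither was called.

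Among the sister complexes, which share Dld and the same design, 6 of 7 genes were measured; with fenofibrate 3 rose and 1 fell, and with fish oil 1 rose. Dlst, the E2 of the 2-oxoglutarate complex, rose by 0.46 with fenofibrate (adjusted p = 5.43e-08). Dbt, the E2 of the branched-chain complex, fell by 0.31 with fenofibrate (adjusted p = 1.65e-04) and rose by 0.20 with fish oil (adjusted p = 0.0351). The branched-chain phosphatase Ppm1k rose by 0.42 with fenofibrate and 0.68 with fish oil, and the kinase Bckdk rose by 0.32 with fenofibrate. In the glycine cleavage system, Gcsh, its lipoate carrier, rose by 0.09 with fenofibrate and 0.11 with fish oil.

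Lists of regulators bore on the same comparisons. Of 12 measured PPAR-alpha target genes, Pdk4 not among them, all 12 rose with fenofibrate (median difference 0.79) and 9 rose with fish oil (median 0.38), where Pdk4 was not called. The fatty acid transporter Cd36 rose by 3.32 with fenofibrate and differed by 0.36 with fish oil (adjusted p = 0.176), and Vnn1 rose by 2.18 and 1.25. The list holds well-known targets and was written with results of these arrays known, so its direction is no independent evidence. Cpt1a, Angptl4 and Fgf21, also known as PPAR-alpha targets, were placed in the fasting list instead. With fenofibrate they differed from control by -0.07, -0.20 and -0.10, and none was called (adjusted p = 0.413, 0.116 and 0.868). The count of 12 of 12 thus depends on how the lists were split. Of 13 measured fasting and glucocorticoid genes, none rose under either diet; 2 fell with fenofibrate (Tat and Tsc22d3) and 3 with fish oil (Fgf21, Cpt1a and Tat). Fgf21, a fasting hormone, had a control mean of 5.18 and a fish oil mean of 2.96, below the floor of 4, so the size of its fall is set by the background model and is not given. Of 12 clock genes, 1 fell with fenofibrate (Cry2, by 0.39, adjusted p = 0.0324) and none was called with fish oil.

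**Figure D4:**
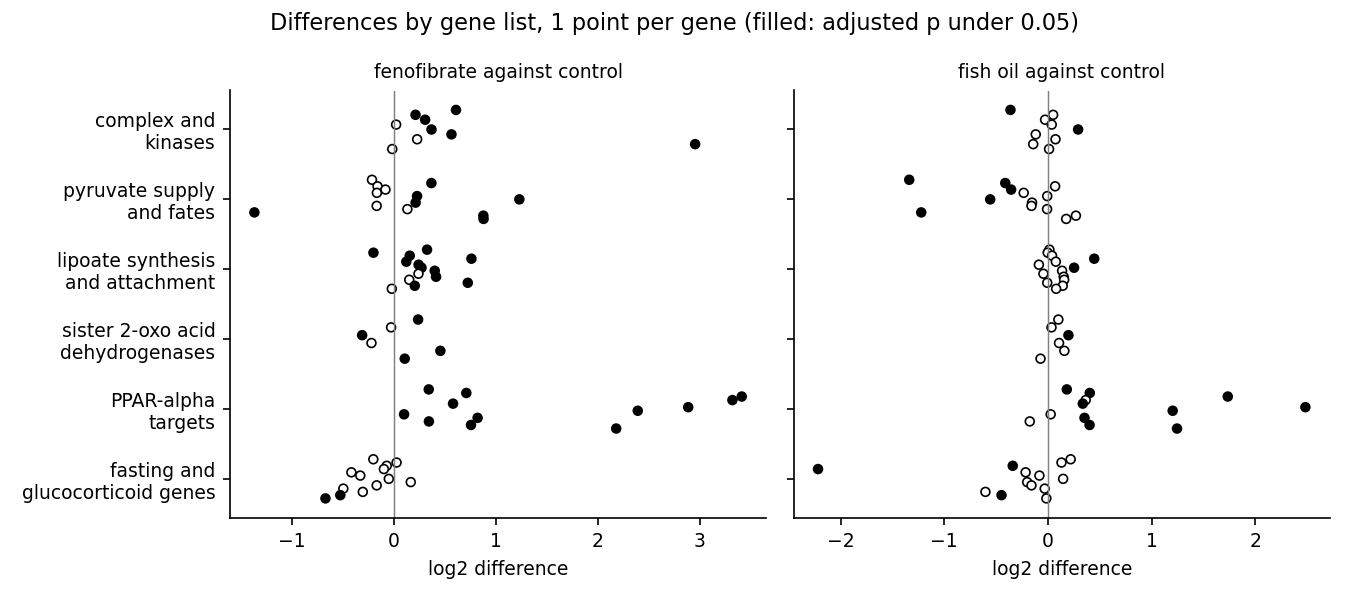
Difference in mean log2 value from control for the members and for the listed genes of related pathways, 1 point per measured gene (x axis, log2 units; the panels have separate scales), with filled points past an adjusted p of 0.05. Pyruvate supply and fate genes lie on both sides of 0 with fenofibrate (6 higher, 1 lower) and 5 called genes lie below 0 with fish oil.

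Some genes of the cell type lists were called as well. Of 10 hepatocyte genes, 7 fell with fenofibrate (median -0.16) and 2 with fish oil. Of 8 measured stellate cell genes, 5 fell and 1 rose with fenofibrate (median -0.29), at mean list levels of 8.44 to 8.84 in controls and 8.33 to 8.66 with fenofibrate. Of 10 Kupffer cell genes, 2 fell with fenofibrate (median -0.23), at 8.55 to 9.27 in controls and 7.93 to 9.38 with fenofibrate. Of 9 sinusoidal endothelial genes, 3 fell and 1 rose with fenofibrate (median -0.06) and 3 fell with fish oil (median -0.21), at 8.06 to 8.33 in controls, 7.93 to 8.29 with fenofibrate and 7.83 to 8.06 with fish oil. Of the lists with 1 or 2 measured genes, the red cell gene Alas2 fell by 1.04 with fenofibrate and Bpgm rose by 0.40, the elastase gene Cela1 fell by 1.13, the immunoglobulin gene Ighm rose by 0.67 (adjusted p = 0.0334), and the bile duct gene Sox9 was not called; with fish oil, Bpgm alone of these 5 was called, a rise of 0.28. The adipocyte list, with 3 of 6 genes kept, stood at 8.43 to 10.67 in controls and 9.94 to 11.71 with fenofibrate, its genes Fabp4 and Cidec being higher and Car3 lower. The part of these shifts in the members' differences was not tested.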

How the data were processed

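The deposited values are log2 levels for each probe set. According to the submitters' processing notes, the authors used GCRMA 2.24.1 for them. This method subtracts a background modelled from probe sequence, normalizes arrays by quantiles and summarises the probes, which makes array medians almost alike; differences of dim probe sets depend on the background model. Each of the 33 samples has 1 column. Array data have no read depth; their number sets the precision.

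Control probe sets (64) were dropped. Of the rest, 34958 carry 1 gene in the platform annotation and 932 several, which were not named; symbols were updated through the gene identifier with RefSeq names of GRCm38.p6. Probe sets that reached log2 4 on 10 arrays or more were kept (17162), and the one of highest mean stood for its gene (9005 genes). Levels of different probe sets were not compared.

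Differences were fitted over the 3 groups with limma 3.58.1 (R 4.3.3, statmod 1.5.0), two-sided, with Benjamini-Hochberg adjustment over all genes of a comparison; a gene was called at an adjusted p under 0.05. A fold is 2 to the power of the log2 difference. The fit was checked for recovering large added differences in simulated data. Those data had independent noise between arrays and no outlying arrays, so they do not test such departures. Permutation tests of Pdk4 between groups used scipy 1.17.1, and those of correlations used numpy 2.4.6, each with 100000 resamples. Members were all named; from each other list, up to 4 called genes per comparison with the smallest adjusted p could be named, and Pdk4 was matched to the 5 genes with the highest correlation. The exceptions were named after their values had been seen. They are Cd36 and Pdpr with fish oil, and Cpt1a, Angptl4 and Fgf21 with fenofibrate, where they were not called. Further exceptions are the clock genes set beside control replicate 1 and the cell type markers named singly. The members and lists were chosen with earlier results of these data known.

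Alternatives concerned the dimness filter, array centring, the choice of probe set, which arrays entered, the variance model, array weights and blocks, and each array was left out in turn. Not every alternative could move every difference. Pdk2, Pdk4, Pdhx and Pdp2 each have a single probe set, so the choice of probe set could not change theirs. Leaving out arrays of the group not compared could change only the p-value. Replicate numbers shared by the groups did not pair the arrays: same-numbered arrays correlated at a median of 0.0524 (lowest -0.206, 31 pairs) after group means were taken off. Protein sequences were not used here.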

Additional observations from a re-analysis of the deposited data

Results flagged for a closer look

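Among the 10 control arrays, 3 of the 18 member probe sets had a value far from all others for the size of the group; chance gives such a gap in about 1 of 20 probe sets. For Pdk4, control replicate 1 was at 9.275, with the nearest control at 6.842 and the lowest at 4.556. For the second Dlat probe set, control replicate 2 was at 7.969, with the nearest control at 8.691 and the highest at 9.443. For the dim Dld probe set that was not tested, control replicate 7 was at 2.428, with the nearest at 2.177 and the lowest at 1.983.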

How the results depend on the processing

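Under 45 alternatives, 33 of which left out 1 array each, the rise of Pdk4, Pdha1, Dlat, Dld and Pdhx with fenofibrate, the rise of Pdhx with fish oil and the 5 calls between the diets all held. The count of called members with fish oil was 1 (Pdhx) in place of 2 with no filter, with the mean of the kept probe sets, with each probe set by itself, with only the groups compared, with consecutive label numbers as a random block and without the arrays with a letter in the label number, and 1 to 2 when single arrays were left out; the cause was not tested. The Pdk4 difference with fish oil turned to 0.38 with array weights and 0.49 without control replicates 1, 2 and 9, and ran from -0.29 to 0.28 without single arrays. Other signs turned only for differences that were never called. Pdhb with fenofibrate was -0.11 with the mean of the probe sets and ran from -0.0023 to 0.039 without single arrays. Pdk2 with fish oil was -0.075 with array weights, -0.082 without control replicates 1, 2 and 9, and -0.0104 to 0.115 without single arrays. Pdp2 with fenofibrate was 0.081 with array weights, 0.11 without control replicates 1, 2 and 9, 0.044 without the lettered arrays and -0.074 to 0.032 without single arrays. Pdp2 with fish oil was -0.019 with the replicate block, -0.0298 without the lettered arrays and -0.053 to 0.0598 without single arrays; between the diets it was 0.036 with array weights, 0.074 without the lettered arrays and -0.076 to 0.037 without single arrays. Pdk2 between the diets passed the test with array weights (adjusted p = 0.0427). With the replicate number as a block, 6, 2 and 5 members were called in the comparisons of fenofibrate with control, fish oil with control and the diets, as without it, and no call was lost; 3 of 32 arrays correlated best with an array of their own number. Arrays with consecutive label numbers correlated at a median of 0.141 (16 pairs) and other arrays of a group at -0.133. Taking off group means by itself pulls correlations within a group below 0. The arrays of each pair shared a diet, and whether they were cage mates is not in the labels. With these pairs as a random block (consensus correlation 0.23), 845 genes were called with fish oil in place of 1308. Dim probe sets (Pdk3, a probe set of Dld and the dimmest of Pdk1) limit what can be said of those transcripts.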
